A study of Homo sapiens with 6 samples.

Results

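The genes described are 8 classical targets of bone morphogenetic protein (BMP) signalling: the ID genes ID1, ID2, ID3 and ID4, the SMAD genes SMAD6, SMAD7 and SMAD9, and BAMBI. They were taken by gene name from a table of 79172 gene names, all 8 had a row, and all 8 passed the filter on low counts that left 16734 genes for testing. RNA-seq counts came from 3 HK1-overexpressing and 3 control samples of Huh7, an established line of human hepatocellular carcinoma cells. HK1 encodes hexokinase 1, the enzyme that phosphorylates glucose as cells take it up. The labels name the groups only as overexpressing HK1 and control. The way HK1 was introduced, what the control cells received and the number of clones are not given in the sources used here. Nothing in the labels says that replicates were separate cultures, so the p-values reflect sample-to-sample spread, possibly technical in origin.

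BMP ligands bind pairs of type I and type II serine/threonine kinase receptors, which phosphorylate the receptor SMADs. These join SMAD4, enter the nucleus and raise transcription of the ID genes and of several inhibitors that feed back on the pathway. ID proteins have a helix-loop-helix domain without the basic stretch that touches DNA, so they hold E proteins in dimers that cannot bind DNA. SMAD6 and SMAD7 are inhibitory SMADs that act at the receptors, SMAD6 mainly on the BMP branch and SMAD7 on the BMP and TGF-beta branches. BAMBI is a transmembrane decoy with no kinase domain, and SMAD9 is itself a receptor SMAD of the BMP branch. In hepatocytes the pathway is best known for control of hepcidin and iron balance.

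Promoter sequences are shown for 3 genes that were lower in HK1-overexpressing cells under every setting tried (SMAD6, ID3 and ID4) and for 2 feedback inhibitors that did not pass the test (SMAD7 and BAMBI), so that the letters can be read beside the values. All 8 genes had an entry in the RefSeq table (GRCh38.p14). Each sequence is the 250 bases before the annotated start, read 5′ to 3′ on the gene's own strand. For SMAD7 the first of 3 listed starts is shown. Capitals mark 3 motifs searched on both strands: GGCGCC, a GC-rich element to which BMP receptor SMADs bind; GTCTAGAC, the palindromic SMAD-binding element; and CAGAC, or GTCTG on the other strand, a short SMAD-binding element.
SMAD6 (chr15:66701986-66702235, plus strand): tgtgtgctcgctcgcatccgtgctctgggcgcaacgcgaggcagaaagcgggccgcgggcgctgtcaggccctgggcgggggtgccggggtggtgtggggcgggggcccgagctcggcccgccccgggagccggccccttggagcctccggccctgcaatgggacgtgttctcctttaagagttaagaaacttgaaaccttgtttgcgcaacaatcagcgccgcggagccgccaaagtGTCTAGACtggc
ID3 (chr1:23559502-23559751, minus strand): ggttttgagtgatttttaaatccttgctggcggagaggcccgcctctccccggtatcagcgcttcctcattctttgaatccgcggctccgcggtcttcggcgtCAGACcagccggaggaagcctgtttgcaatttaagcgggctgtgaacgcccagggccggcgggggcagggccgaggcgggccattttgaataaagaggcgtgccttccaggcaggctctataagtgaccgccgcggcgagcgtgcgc
ID4 (chr6:19837120-19837369, plus strand): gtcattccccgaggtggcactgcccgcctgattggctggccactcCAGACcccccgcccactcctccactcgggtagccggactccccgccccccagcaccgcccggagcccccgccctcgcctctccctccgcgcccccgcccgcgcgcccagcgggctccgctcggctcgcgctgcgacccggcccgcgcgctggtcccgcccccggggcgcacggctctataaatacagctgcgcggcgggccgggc
SMAD7 (chr18:48950966-48951215, minus strand): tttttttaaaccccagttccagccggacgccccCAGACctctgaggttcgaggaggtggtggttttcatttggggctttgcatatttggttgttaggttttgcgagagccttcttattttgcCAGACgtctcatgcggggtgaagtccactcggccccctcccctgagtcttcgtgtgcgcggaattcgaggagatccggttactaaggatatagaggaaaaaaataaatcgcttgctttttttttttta
BAMBI (chr10:28677271-28677520, plus strand): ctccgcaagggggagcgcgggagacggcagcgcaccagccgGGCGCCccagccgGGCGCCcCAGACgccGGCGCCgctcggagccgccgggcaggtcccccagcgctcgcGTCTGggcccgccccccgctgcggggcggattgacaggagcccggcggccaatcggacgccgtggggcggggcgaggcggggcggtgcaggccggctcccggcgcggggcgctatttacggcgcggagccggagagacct
The SMAD6 window held GTCTAGAC with its first base at -12 from the start. That motif was present in 64 of 35116 promoter windows of the same length, or 0.182%. The BAMBI window held GGCGCC at -209, -196 and -181, a motif present in 16.4% of all windows, and was the only one of the 10 windows of these genes that held it. CAGAC, present in 38% of all windows, lay at -147 in ID3, at -205 in ID4, at -217 and -128 in the SMAD7 window shown, at -193 in that of the second SMAD7 start and at -189 and -140 in BAMBI. No match overlapped a match to another motif. The windows of ID1, ID2 and SMAD9 held none of the 3. Such a match describes letters in a short window; elements farther away were not searched.

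Libraries held 16771835 to 20823072 counts. HK1 had 9723, 10602 and 11101 counts in HK1-overexpressing libraries, against 13, 15 and 13 in control libraries. Control libraries differed more among themselves than HK1-overexpressing ones did, with a chi-square per degree of freedom of 1.51 to 2.12 between HK1-overexpressing pairs and 4.54 to 9.94 between control pairs. Of 10 genes that mark Huh7 as hepatocyte-derived, all were expressed and 8 were lower in HK1-overexpressing cells, ALB, AFP and APOA1 among them, beside 4.15% of all tested genes, and their summed level was 6763 to 7079 CPM in HK1-overexpressing libraries and 9328 to 9847 CPM in control libraries. Their part in the changes below was not tested. Summed markers of stromal cells were 5.74 to 7.58 CPM in HK1-overexpressing and 8.40 to 9.77 CPM in control libraries, those of endothelial cells 4.53 to 5.40 and 4.02 to 6.25 CPM, and those of leukocytes 3.27 to 3.99 and 3.34 to 4.02 CPM. CDH5 and KDR of endothelial cells had no count in any library, and 0 of the 4 tested genes of these 3 lists passed the edgeR, DESeq2 or limma-voom test, while at an unadjusted p below 0.05 0 were higher and the 2 stromal genes were lower. In bulk RNA, fewer cells of a kind and less RNA per cell cannot be told apart.

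Of the 8 BMP-SMAD target genes, ID1, ID3, ID4, SMAD6 and SMAD9 were lower in HK1-overexpressing cells, 0 were higher, and ID2, SMAD7 and BAMBI did not pass. Levels are in CPM, the counts scaled by library total and TMM factor. The test was edgeR's quasi-likelihood test with Benjamini-Hochberg adjustment over all 16734 genes at 0.05. A negative log2 change means lower in HK1-overexpressing cells. The 5 called genes of 8 stand beside a background of 8.02% of all tested genes called, 4.15% lower and 3.87% higher. For 6 of the 8 the libraries of the groups did not overlap, against 27.8% of all tested genes. The median log2 change of the 8 was -0.27, beside 0.01 over all tested genes.

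**Figure D1:**
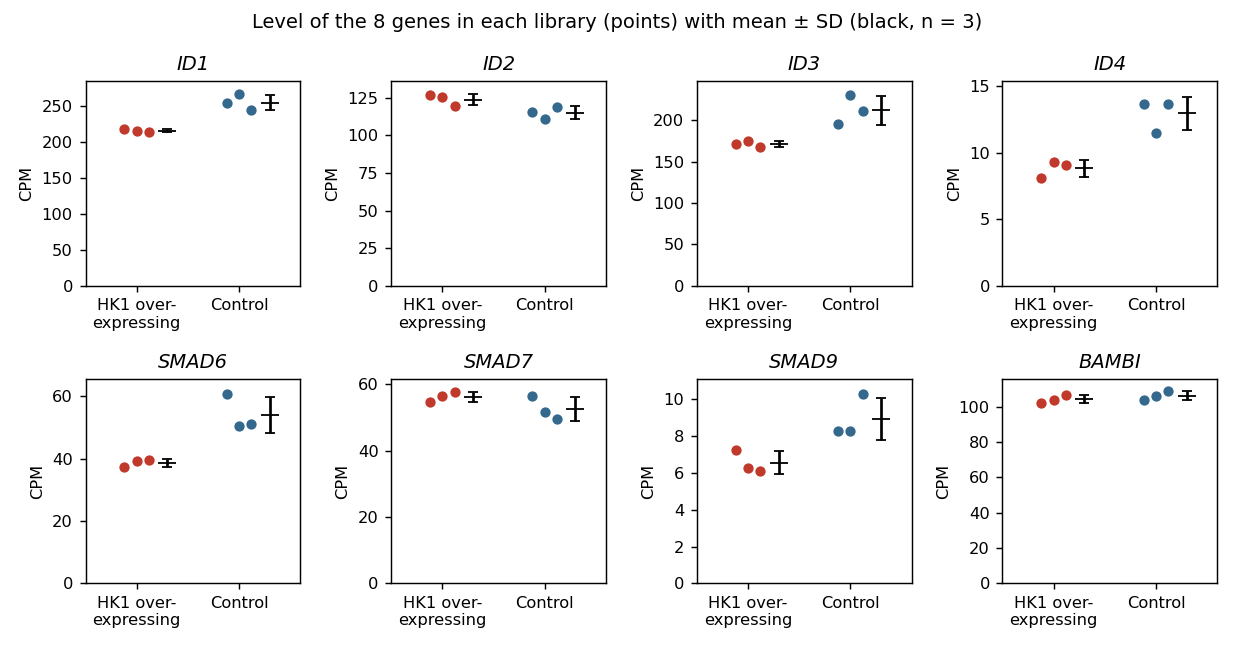
Level of each target gene in CPM (y axis, from 0) in the 3 HK1-overexpressing (red) and 3 control (blue) libraries, with the mean and SD in black. ID1, ID3, ID4, SMAD6 and SMAD9 lie lower in all 3 HK1-overexpressing libraries than in any control library, ID2 lies slightly higher, and SMAD7 and BAMBI overlap.

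ID1, the ID gene most often read as a sign of BMP signalling, was at 217, 216 and 214 CPM in HK1-overexpressing libraries and at 254, 266 and 244 CPM in control libraries. All 3 HK1-overexpressing values lay below the lowest control value. The mean was 216 ± 1.66 CPM in HK1-overexpressing cells and 255 ± 10.99 CPM in control cells (SD, n = 3 each). ID1 fell by 15.3%, with a log2 change of -0.24 (SE 0.0487, edgeR adjusted p = 0.00731). The call was narrowly lost without any 1 HK1-overexpressing replicate, with edgeR adjusted p of 0.0552, 0.0641 and 0.0569 without replicate 1, 2 and 3, while the log2 change stayed at -0.24, -0.24 and -0.23. In the annotation used for counting, exons of ID1 span 31573014 to 31606515 on chromosome 20 (hg38). The 250 bases before its RefSeq start end at 31605288, so most of that span lies upstream of the RefSeq start. Of its exonic bases 179, 10.4%, are also exonic in HM13, a signal peptide peptidase gene on the same strand. A further overlap of 241 is with an unnamed gene that held 2 to 4 counts per library. The recorded command has no setting for fragments in several genes, in which case those in shared bases are left unassigned. HM13 itself did not pass (log2 -0.11, edgeR adjusted p = 0.222).

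ID3 had 171, 175 and 168 CPM in HK1-overexpressing libraries, against 195, 230.4 and 211 CPM in control libraries. The groups did not overlap, and the control values were spread more widely, with a coefficient of variation of 1.93% in HK1-overexpressing cells and 8.28% in control cells. ID3 fell by 19.3% (log2 -0.31, SE 0.0590, edgeR adjusted p = 0.00475). It is also annotated on 1 alternate sequence, so fragments that map to both copies may be missing from its counts in all libraries.

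ID4, the ID gene with the lowest level, had 8.11, 9.28 and 9.05 CPM in HK1-overexpressing libraries and 13.7, 11.5 and 13.7 CPM in control libraries. These rest on raw counts of 161, 193 and 191 in HK1-overexpressing libraries and 272, 196 and 225 in control libraries, so that counting alone gives an error of about 6.96% per library. The groups did not overlap on the CPM scale, and ID4 fell by 31.9% (log2 -0.55, SE 0.1004, edgeR adjusted p = 0.00336), which was the largest change among the 8 genes.

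ID2, which unlike the other 3 ID genes did not pass the test, had 127, 125 and 119.7 CPM in HK1-overexpressing libraries, against 116, 111 and 119 CPM in control libraries. Every HK1-overexpressing library was above every control library, the closest pair being less than 1 CPM apart. The log2 change was 0.11 with a 95% interval of -0.01 to 0.22 (edgeR adjusted p = 0.260), and none of the 16 alternative settings called it. ID2 shares 179 exonic bases, 8.09%, with ID2-AS1 on the opposite strand, which counted 150, 130 and 166 in HK1-overexpressing and 162, 145 and 129 in control libraries. The recorded command sets no strand, in which case fragments in these shared bases are also left unassigned.

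Among the inhibitory SMADs, SMAD6 was lower and SMAD7 was not. SMAD6 had 37.2, 39.4 and 39.4 CPM in HK1-overexpressing libraries and 60.7, 50.5 and 51.1 CPM in control libraries. Control replicate 1 was the highest of the controls, yet the groups were apart by over 10 CPM without it. SMAD6 fell by 28.6% (log2 -0.49, SE 0.0756, edgeR adjusted p = 0.00107), with the smallest adjusted p of the 8 genes. Without control replicate 1 the log2 change was -0.39 and the call held. SMAD7 had 54.6, 56.4 and 57.6 CPM in HK1-overexpressing libraries, against 56.6, 51.5 and 49.5 CPM in control libraries. Control replicate 1 lay inside the HK1-overexpressing range, so the groups overlapped. The log2 change of SMAD7 was 0.10 with a 95% interval of -0.04 to 0.23 (edgeR adjusted p = 0.424).

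SMAD9, the receptor SMAD whose own transcription responds to BMP, had 7.25, 6.25 and 6.11 CPM in HK1-overexpressing libraries and 8.24, 8.27 and 10.3 CPM in control libraries. Raw counts were 144, 130 and 129 in HK1-overexpressing and 164, 141 and 169 in control libraries, a counting error of about 8.27% per library. The groups did not overlap and SMAD9 fell by 26.6% (log2 -0.45, SE 0.119, edgeR adjusted p = 0.0337). This was the least stable of the 5 calls. It was lost with DESeq2 (adjusted p = 0.0950), without control replicate 3 (log2 -0.34, edgeR adjusted p = 0.152) and without HK1-overexpressing replicate 1, 2 or 3 (edgeR adjusted p = 0.0543, 0.148 and 0.152).

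BAMBI had 102, 104 and 107 CPM in HK1-overexpressing libraries, against 104, 106 and 109 CPM in control libraries. The values interleave. The log2 change was -0.03 with a 95% interval of -0.14 to 0.08 (edgeR adjusted p = 0.805). With library totals in place of TMM factors its direction turned, at 0.01.

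**Figure D2:**
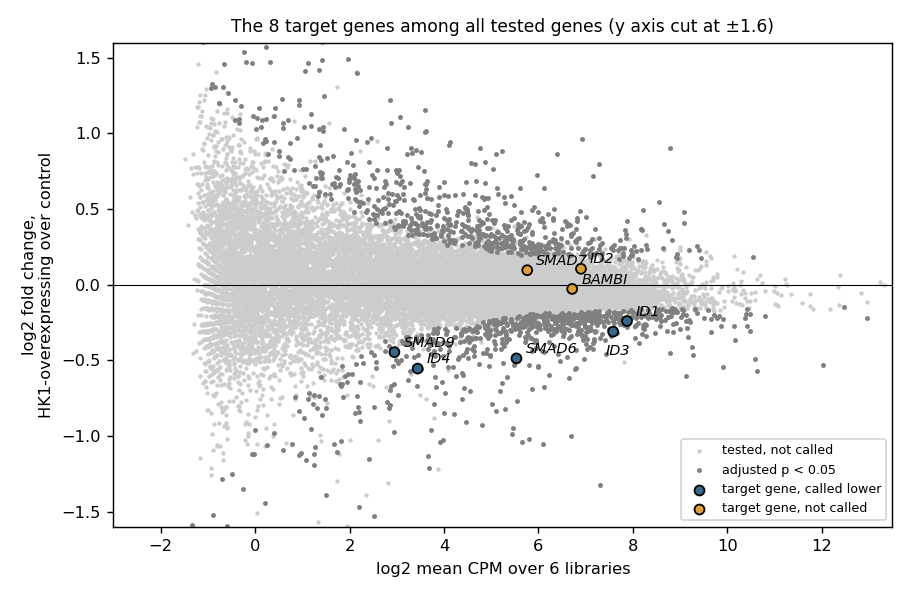
Log2 fold change (y axis, HK1-overexpressing over control, shown within ±1.6, so that HK1 and a few other genes lie outside) against log2 mean CPM over the 6 libraries (x axis) for all 16734 tested genes, with the 8 target genes marked. The 5 lower genes (blue), between -0.55 and -0.24, lie among the lower genes that passed the test. ID2, SMAD7 and BAMBI (orange) did not pass and lie between -0.03 and 0.11.

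Per kilobase of annotated exon, the means of the 8 genes had the same order in both groups. This scale compares genes only roughly, because exonic bases shared with another gene add to the length but may collect no counts. ID1 had the highest level, 126 ± 0.971 CPM per kb in HK1-overexpressing and 149 ± 6.42 in control cells, followed by ID3 at 114 ± 2.22 and 142 ± 11.7 CPM per kb (SD, n = 3 each). Within every library ID1 was above ID3, though their ranges across the control libraries overlapped, unlike those across the HK1-overexpressing libraries. Their order is close and may depend on the lengths used. ID2 came next at 56.0 ± 1.69 and 52.1 ± 1.85 CPM per kb and BAMBI after it at 48.7 ± 1.11 and 49.6 ± 1.19. Within every library ID2 was above BAMBI, with ranges apart across HK1-overexpressing libraries and overlapping across control libraries. SMAD7 was at 14.2 ± 0.376 CPM per kb in HK1-overexpressing and 13.3 ± 0.920 in control cells, SMAD6 at 4.52 ± 0.150 and 6.32 ± 0.671, ID4 at 2.28 ± 0.160 and 3.34 ± 0.323, and SMAD9 at 1.09 ± 0.104 and 1.49 ± 0.193. Each of these was separated from its neighbours in the order in every library of both groups. For ID3 the length on the primary chromosome, 1496 bases, was used.

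Ratios of pairs within a library do not depend on how libraries are scaled. The ratio of SMAD7 to SMAD6, per kilobase, was 3.18, 3.11 and 3.17 in HK1-overexpressing libraries, against 2.02, 2.21 and 2.10 in control libraries. No control library came near the HK1-overexpressing values, and the difference was 0.58 on the log2 scale. The ratio of BAMBI to SMAD6 was 10.96, 10.5 and 10.8 in HK1-overexpressing and 6.83, 8.39 and 8.52 in control libraries. Within the ID family, ID2 stood at 0.502, 0.485 and 0.481 of the level of ID3 in HK1-overexpressing libraries, against 0.401, 0.325 and 0.380 in control libraries. The share of ID2 in the summed ID level per kilobase was 18.8% ± 0.326 in HK1-overexpressing cells and 15.1% ± 1.08 in control cells (SD, n = 3 each). The ratio of ID1 to ID3 was 1.11, 1.08 and 1.11 in HK1-overexpressing libraries and 1.14, 1.01 and 1.01 in control libraries, which overlap. Of 6 ratios compared, 5 did not overlap between groups, each with an exact two-sided permutation p = 0.1, the smallest that 3 against 3 allows (0.12 after Benjamini-Hochberg adjustment over the 6), so none can pass 0.05 in this design. The pairs were chosen with the single-gene values known.

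**Figure D3:**
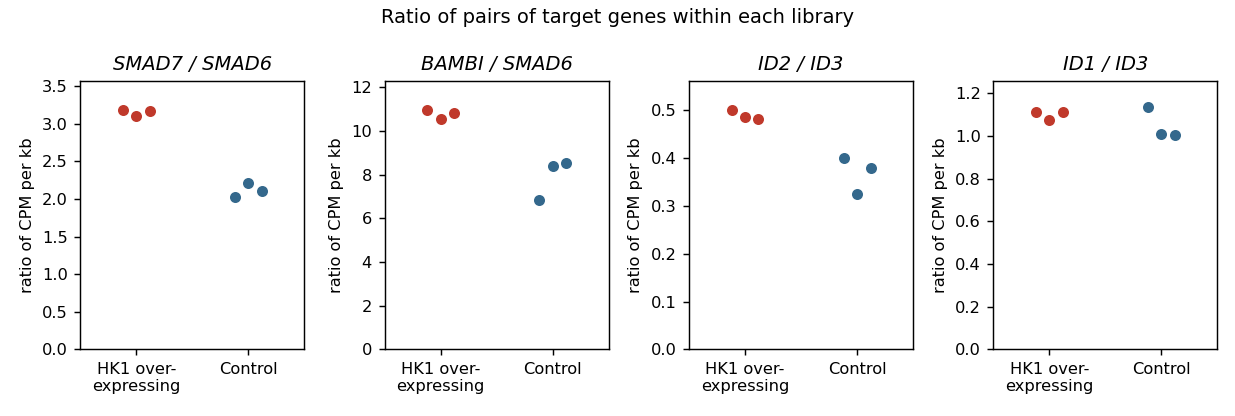
Ratio of levels in CPM per kb (y axis, from 0) of 4 pairs of target genes in each HK1-overexpressing (red) and control (blue) library. SMAD7 over SMAD6, BAMBI over SMAD6 and ID2 over ID3 are higher in all 3 HK1-overexpressing libraries, and ID1 over ID3 overlaps.

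The rest of the pathway was described with 64 genes in 6 lists, of which 45 could be tested. In these lists 2 genes rose and 2 fell, against a background of 3.87% and 4.15% of all tested genes, and their median log2 change was 0.05. Leaving out control replicate 1 gave 8 higher genes and leaving out control replicate 2 gave 4 higher and 4 lower. With each HK1-overexpressing replicate left out in turn, 1 gene was higher, and 0, 1 and 1 were lower. Among 13 BMP ligand genes, 7 were tested. BMP2, the ligand gene with most counts, had 171, 181 and 176 CPM in HK1-overexpressing libraries, against 209, 207 and 213 CPM in control libraries, and fell (log2 -0.25, SE 0.0476, edgeR adjusted p = 0.00454). The groups were well apart, though the call was lost without HK1-overexpressing replicate 1 (edgeR adjusted p = 0.0559). BMP4, a ligand of the same subgroup, had 21.7, 23.3 and 23.6 CPM in HK1-overexpressing and 18.2, 19.8 and 19.1 CPM in control libraries, and rose (log2 0.27, SE 0.0752, edgeR adjusted p = 0.0430). That call is marginal: it held in 8 of 16 alternatives and was lost with DESeq2, with the replicate block, at a threshold of 0.01, on leaving out control replicate 1 or 3 and on leaving out each HK1-overexpressing replicate, with adjusted p up to 0.1899. BMP6, the main ligand behind hepcidin in the liver, was at 1.64 ± 0.115 CPM in HK1-overexpressing and 1.04 ± 0.382 CPM in control cells and did not pass (SD, n = 3 each, edgeR adjusted p = 0.173).

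None of 10 tested receptor and co-receptor genes passed, of 12 listed; their median log2 change was 0.15. At an unadjusted p below 0.05 2 were higher and 0 lower, and DESeq2 called 1 higher and limma-voom 0. BMPR2, the type II receptor, had 54.8, 56.6 and 53.2 CPM in HK1-overexpressing libraries and 48.9, 35.4 and 45.3 CPM in control libraries (log2 0.34, edgeR adjusted p = 0.0579). ACVR1, a type I receptor, was at 28.0 ± 0.511 CPM in HK1-overexpressing and 26.3 ± 1.053 CPM in control cells (log2 0.09, edgeR adjusted p = 0.475). BMPR2 passed in 8 of 16 alternatives. None of the 3 genes for the SMADs that carry the signal passed, nor did any with DESeq2 or limma-voom, and 0 had an unadjusted p below 0.05 with edgeR. SMAD5, the receptor SMAD with the higher level, was at 70.1 ± 2.06 CPM in HK1-overexpressing and 70.2 ± 12.4 CPM in control cells (SD, n = 3 each), and SMAD1 was at 11.8 ± 0.909 CPM in HK1-overexpressing and 12.2 ± 1.89 CPM in control cells. SMAD4, the common partner, was at 53.5 ± 1.07 CPM in HK1-overexpressing and 58.2 ± 5.07 CPM in control cells. Control replicate 2 was the lowest control for BMPR2, SMAD1, SMAD4 and SMAD5, at 56.4 CPM for SMAD5 beside 80.5 and 73.8 CPM in control replicates 1 and 3. Without it SMAD4 passed as lower, the only setting of 16 in which it did.

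Of 16 extracellular antagonist genes 8 were tested, 1 rose and 0 fell, beside 3.87% higher and 4.15% lower over all tested genes. At an unadjusted p below 0.05 with edgeR, 2 were higher and 1 lower. FSTL3, a follistatin-related protein that binds activins and some BMP family members, had 53.7, 59.4 and 56.3 CPM in HK1-overexpressing libraries, against 42.1, 44.5 and 43.1 CPM in control libraries (log2 0.39, SE 0.0625, edgeR adjusted p = 0.00143). It passed in all 16 alternatives. Of 12 intracellular or membrane-bound negative regulators, all tested, 1 fell and 0 rose, beside the same shares. At an unadjusted p below 0.05 with edgeR, 4 were higher and 2 lower. The number called higher was 0 with DESeq2 and with limma-voom, 2 with RLE size factors, and 4 with quality weights or without control replicate 1. CTDSP1, a phosphatase that acts on SMADs, had 80.9, 83.9 and 85.8 CPM in HK1-overexpressing and 95.2, 104 and 94.2 CPM in control libraries (log2 -0.23, edgeR adjusted p = 0.0251), and its call was lost with library totals, at a threshold of 0.01 and without any 1 HK1-overexpressing replicate. SMURF2, a ubiquitin ligase that SMAD7 brings to receptors, was at 18.7 ± 1.11 CPM in HK1-overexpressing and 15.4 ± 1.02 CPM in control cells and missed the threshold (SD, n = 3 each, edgeR adjusted p = 0.0508).

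Among 8 other BMP target genes, 5 were tested and 0 passed with edgeR, DESeq2 or limma-voom; at an unadjusted p below 0.05 1 was higher and 1 lower with edgeR. GATA2, a transcription factor, was at 38.6 ± 2.17 CPM in HK1-overexpressing and 43.0 ± 0.470 CPM in control cells (log2 -0.15, edgeR adjusted p = 0.169), and HEY1, a repressor shared with Notch signalling, at 3.06 ± 0.320 CPM in HK1-overexpressing and 2.42 ± 0.145 CPM in control cells (SD, n = 3 each, edgeR adjusted p = 0.247). HAMP, which encodes hepcidin, was named after its values were seen: it held 6, 4 and 9 counts in HK1-overexpressing and 5, 7 and 8 counts in control libraries, too few to be tested. The 3 E protein genes whose products ID proteins bind, TCF3, TCF4 and TCF12, did not pass with edgeR, DESeq2 or limma-voom and had no unadjusted p below 0.05 with edgeR, with log2 changes of -0.04, -0.06 and 0.04.

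Among 11 genes of the TGF-beta branch, 10 were tested, 3 rose and 0 fell, beside 3.87% higher and 4.15% lower over all tested genes. At an unadjusted p below 0.05 with edgeR, 3 were higher and 1 lower. The number called lower was 0 with DESeq2 and with limma-voom, 1 with quality weights and 1 without control replicate 2. SMAD3, a receptor SMAD of that branch, was at 221 ± 1.64 CPM in HK1-overexpressing and 196 ± 7.38 CPM in control cells (log2 0.17, edgeR adjusted p = 0.0421), and CDKN2B, a cell cycle inhibitor, at 29.9 ± 2.22 CPM in HK1-overexpressing and 24.1 ± 2.04 CPM in control cells (log2 0.31, edgeR adjusted p = 0.0328). Both calls were lost at a threshold of 0.01, that of SMAD3 with the replicate block, and both on leaving out control replicate 3 or each HK1-overexpressing replicate in turn. CCN2 and TGFBI, further targets of that branch, were at log2 changes of -0.12 and -0.08 and did not pass. For CCN2 the groups did not overlap, and its unadjusted edgeR p was 0.0324.

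**Figure D4:**
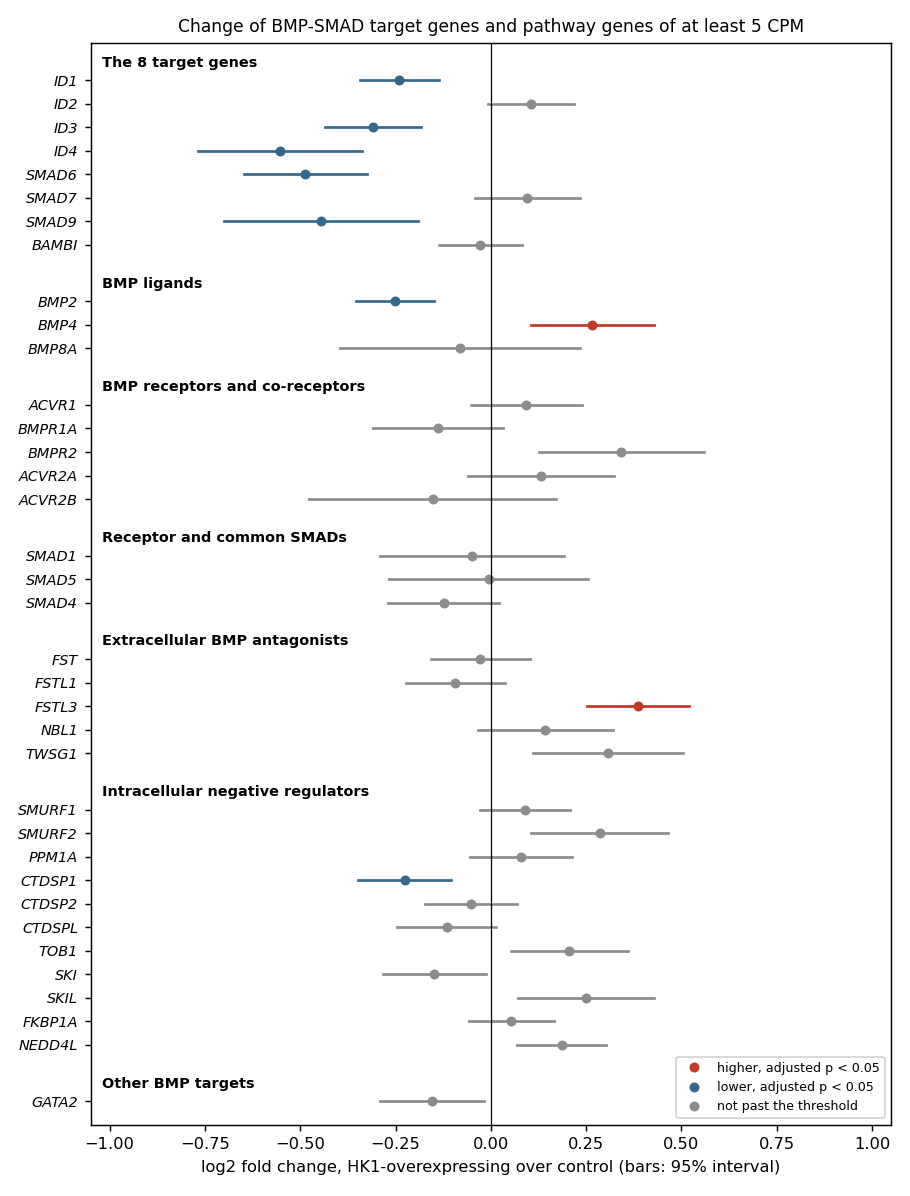
Log2 fold change (x axis, HK1-overexpressing over control) with its 95% interval for the 8 target genes and the listed pathway genes with a mean of at least 5 CPM, grouped by role. The called genes of the pathway outside the 8 are BMP2 and CTDSP1 (lower, blue) and BMP4 and FSTL3 (higher, red); the intervals are not adjusted for multiple testing, so some grey ones leave out 0.

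The genes most like each lower target gene were sought among 9439 other genes of at least 10 CPM, by the root mean square difference of log2 CPM over the 6 libraries after centring each gene on its own mean. ALDH7A1, TTC23 and NIPSNAP1 were closest to ID1, with differences of 0.0131, 0.0132 and 0.0169 on the log2 scale. E2F2, AURKB and TTR were closest to ID3, at 0.0204, 0.0214 and 0.0314. LYZ, CP and DAB1 were closest to ID4, at 0.0559, 0.0618 and 0.0671, and HLF, NID1 and VWA1 to SMAD6, at 0.0336, 0.0482 and 0.0490. CENPH, GYG2 and CPB2 were closest to SMAD9, at 0.0736, 0.0966 and 0.0980. No gene stands in 2 of these sets. The measure uses the group difference itself, so it lists genes with a fold change of like size and says nothing more.

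**Figure D5:**
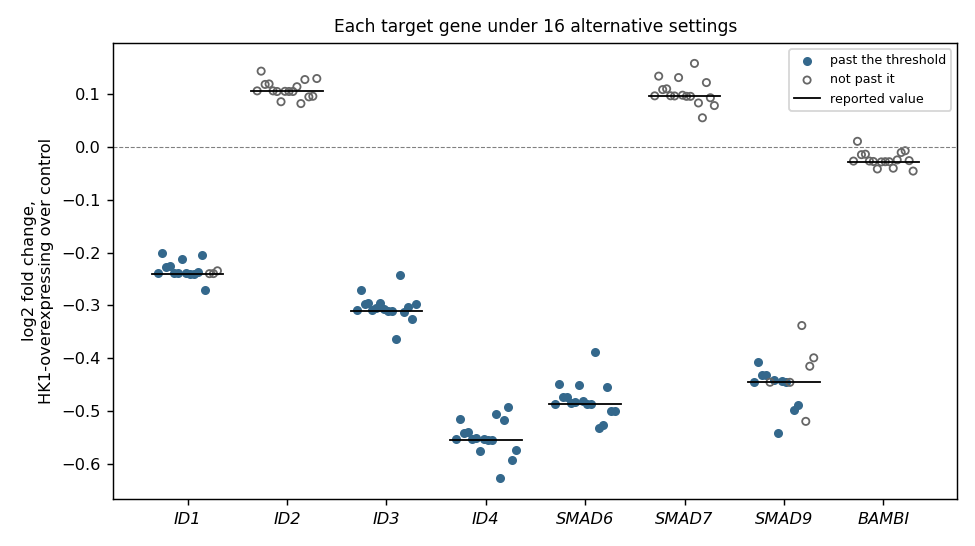
Log2 fold change (y axis, HK1-overexpressing over control) of each target gene under 16 alternative settings, filled where it passed the threshold and open where it did not, with the reported value as a line. ID3, ID4 and SMAD6 passed in all 16, ID1 in 13 and SMAD9 in 10; ID2, SMAD7 and BAMBI passed in none.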

How the data were processed

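The authors deposited raw counts per gene for 6 samples, counted by gene name over exons by featureCounts 1.5.3 (paired mode, GENCODE release 47), per the file headers. The submitters' processing notes add Trim Galore, Subread and hg38. Neither a strand setting nor one for fragments in several genes or places appears in the recorded command. Columns were matched to samples by title, and no other sample columns were present.

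Counts were tested with edgeR 4.0.16 in R 4.3.3 (TMM, filterByExpr, robust quasi-likelihood test, group as the only term, Benjamini-Hochberg adjustment at 0.05). CPM and CPM per kb were computed from the deposited counts, with exonic bases on primary chromosomes. Standard errors are the unshrunken coefficient over the square root of F. Intervals at 95% use the same fit. Alternatives used DESeq2 1.42.0 and limma 3.58.1. The test was also tried on simulated data. Promoters came from RefSeq. The target genes, the 16 gene lists and the alternatives were chosen with earlier results of these data known. Named genes were the 8, HK1, called list members and otherwise the 2 of highest CPM per list, and the 3 genes most like each called target gene. BMP6, SMURF2, SMAD1, TCF4, CCN2, TGFBI and HAMP were named after their values were seen. Single values of some called list members are not reported here. The filter and counts at low levels limit precision, and counting errors take PCR copies for separate molecules. Replicate numbers are shared between groups without a stated pairing.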

Additional observations from a re-analysis of the deposited data

How the results depend on the processing

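Of 16 alternatives, ID3, ID4 and SMAD6 passed in all, ID2, SMAD7 and BAMBI in none. The number of target genes called higher was 0 under every one. The number called lower was 3 to 5 when 1 replicate was left out and 3 without any 1 HK1-overexpressing replicate, where ID1 and SMAD9 were lost, with 4 or 5 otherwise. SMAD9 also missed an adjusted p of 0.01. BAMBI turned to a log2 change of 0.011 with library totals only; under that setting the median of all genes was 0.04, against 0.01 with TMM, and 66.0% of calls were higher, against 48.3%.

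Over all genes, 648 were higher and 694 lower. At an adjusted p of 0.01 these were 289 and 285, limma-voom with quality weights called 1048 lower, and leaving out 1 replicate gave 286 to 1172 higher and 250 to 1085 lower, the highest counts without control replicate 1 and the lowest without HK1-overexpressing replicate 2. Fewer samples enter those fits; the cause of the wide range was not tested.

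The counts of the 6 pathway lists, 2 higher and 2 lower, depended most on the setting. Higher genes numbered 4 with RLE size factors, 6 with library totals only, 7 with no filter, 6 with a mean CPM of at least 5, 8 with quality weights and 1 at an adjusted p of 0.01. Lower genes numbered 1 with library totals only and 1 at an adjusted p of 0.01. Leaving out 1 replicate gave 1 to 8 higher and 0 to 4 lower. The counts of single lists were recomputed under the same settings, added after the data were seen. Of these, 43 differed from the reported count by over 1.5 times, or from a reported 0 by any amount, and 341 did not. Many of the reported counts were 0, and such a count stays the same wherever no gene is called.

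No shared effect of the replicate numbers was visible. Deviations of same-numbered samples from their group means correlated at 0.0071, 0.058 and -0.030, and those of differently numbered samples at -0.052 to 0.050. Such values do not show whether samples were handled in pairs. With the replicate block 563 genes were higher and 511 lower, with 0 higher and 5 lower among the target genes, and 2 higher and 2 lower in the pathway lists. HK1 gave a log2 change of 9.36 with the block. ID4 and SMAD9, at 129 to 272 counts per library, are limited most by depth.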
